A study of Sus scrofa domesticus with 9 samples.

Results

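Long noncoding RNA (lncRNA) genes were examined in the livers of preterm piglets, as the 98 genes given the lncRNA biotype among the 1054 genes for which counts were deposited for each library. None of the 98 had a gene symbol in the deposited table, so each is named by its Ensembl identifier. The PN group was 6 preterm Yorkshire piglets kept on parenteral nutrition, which is feeding into a vein. The bottle-fed group was 3 preterm Yorkshire piglets given sow milk replacer. Per the paper, PN piglets also got a medium chain triglyceride vehicle each day by a tube into the stomach. Bottle-fed piglets began on parenteral nutrition too and were off it by day of life 3. All livers were collected at day of life 15, and RNA-Seq was run on RNA selected by its poly-A tail. One PN liver was left out by the study as an outlier. It is PN 5 here, so group values rest on 5 PN livers (PN 1, 2, 3, 4 and 6) and 3 bottle-fed livers, and PN 5 is given beside them. The PN piglets and the bottle-fed piglets came from different sows, and the vehicle is described for the PN piglets only. Litter, vehicle and diet therefore cannot be told apart.

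A lncRNA is a long transcript with no recognised protein product. Many are transcribed beside a protein-coding gene, often from the opposite strand or from a shared start region, and they are usually less abundant and more tissue-restricted than messenger RNAs. Some act in the nucleus on chromatin or on transcription of nearby genes, others act in the cytoplasm on other RNAs or proteins, and for most no function is known. In liver, lncRNAs have been linked to cholesterol, bile acid and glucose metabolism and to inflammation, mainly in mouse and human.

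The 98 genes were spread over the genome, with 94 on assembled chromosomes and 4 on unplaced scaffolds. Chromosome 13 held 12 of them and chromosome 1 held 10. The 94 were set against RefSeq's annotation of the same build (Sscrofa11.1), and the 4 on scaffolds were not compared with it. Each gene was put in the first class it met. Exon bases of a coding gene on the same strand were shared by 13, those of a RefSeq lncRNA gene on the same strand by 35 of the rest, and those of a coding gene on the opposite strand by 7 of the remainder. Another 8 had some other overlap, and 31 overlapped no RefSeq gene. Counting both strands and every class, 22 of the 94 shared bases with a coding exon of RefSeq, and 72 shared none. Whether the counting used strand was not given in the sources used here, so reads of the 22 cannot be told apart from reads of the coding gene in the same place.

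Start regions are shown for 2 genes that rose, ENSSSCG00000038429 and ENSSSCG00000047941, because they were among the largest increases. Each is 300 bases on the gene's own strand (Sscrofa11.1, RefSeq), 250 before the annotated start and 50 from it. Also shown are 300 bases that begin at the start of SLC1A1 and run towards ENSSSCG00000043234, which is transcribed away from it, because both genes of that pair fell. Capitals mark matches, on either strand, to the 4 motifs searched, namely the TATA box with the letters TATAAA, the CCAAT box, named for its own letters, the GC box with GGGCGG and the AP-1 site with TGANTCA.
SLC1A1 to ENSSSCG00000043234, chr1:217441675-217441974, plus strand: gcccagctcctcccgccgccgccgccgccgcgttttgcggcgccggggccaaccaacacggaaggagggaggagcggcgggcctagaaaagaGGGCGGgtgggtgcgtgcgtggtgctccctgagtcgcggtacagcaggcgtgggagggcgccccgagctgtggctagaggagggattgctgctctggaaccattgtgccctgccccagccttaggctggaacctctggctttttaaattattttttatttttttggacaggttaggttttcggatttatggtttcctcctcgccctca
ENSSSCG00000038429, chr10:66436833-66437132, minus strand: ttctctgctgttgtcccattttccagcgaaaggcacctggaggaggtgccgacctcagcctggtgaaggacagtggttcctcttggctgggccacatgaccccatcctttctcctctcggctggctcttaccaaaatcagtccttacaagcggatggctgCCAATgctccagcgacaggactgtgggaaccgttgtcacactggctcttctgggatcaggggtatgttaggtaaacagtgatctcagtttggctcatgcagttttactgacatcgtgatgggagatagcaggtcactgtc
ENSSSCG00000047941, chr15:45528327-45528626, minus strand: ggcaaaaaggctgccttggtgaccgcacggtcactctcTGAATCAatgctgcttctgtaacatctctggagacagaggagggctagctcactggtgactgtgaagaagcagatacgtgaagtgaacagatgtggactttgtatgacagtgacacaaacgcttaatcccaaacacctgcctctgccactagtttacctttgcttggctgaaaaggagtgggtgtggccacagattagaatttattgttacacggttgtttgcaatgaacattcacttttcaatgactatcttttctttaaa
The stretch beside SLC1A1 was 61.7% G and C with 23 CpG dinucleotides and 1 GC box. The start of ENSSSCG00000038429 was 53.7% G and C with 7 CpG and 1 CCAAT box, and that of ENSSSCG00000047941 was 44.7% G and C with 5 CpG and 1 AP-1 site.

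Over the 94 lncRNA start windows that could be read, the median G and C content was 49.8%, against 61.7% over 905 windows of protein-coding genes of the table. The median number of CpG was 5.5 for lncRNA genes and 18 for protein-coding genes. A GC box was present in 22.3% of lncRNA windows and in 59.1% of protein-coding windows. The TATA box was present in 16% and 11%, the CCAAT box in 34.0% and 38.1%, and the AP-1 site in 10.6% and 7.62% of lncRNA and protein-coding windows. A match is a run of letters and not a measured binding site.

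Library totals ran from 17337946 to 23421807 counts in the PN group and from 17106838 to 24025142 in the bottle-fed group, and the 98 genes held 6403 to 7796 counts per library, or 0.363 to 0.584% of the counts in the deposited table. Liver identity could be checked only in part, since 3 of 13 hepatocyte markers were among the deposited genes (APOA2, CYP3A29 and CPS1). CYP3A29 was higher with PN and the other 2 were lower. Their summed normalized counts ran between 49961 and 153039 over all 6 PN livers, PN 5 included, and between 94266 and 100780 with bottle feeding. The ranges for the other cell types also take in PN 5. Of 5 cholangiocyte markers 2 were deposited (KRT7 and EPCAM), whose sums ran between 347 and 1002 with PN and between 118 and 143 with bottle feeding. The endothelial marker VWF had 392 to 1208 and 275 to 385, and the stellate marker DCN had 84.5 to 174 and 128 to 673, in the PN and bottle-fed groups in that order. No marker listed for macrophages, lymphocytes, neutrophils or erythroid precursors was among the deposited genes. The part of cell makeup in the differences below was not tested, and in whole liver fewer cells of a type and less RNA per cell cannot be told apart.

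Between the PN and bottle-fed groups, 51 of the 98 lncRNA genes rose and 47 fell (edgeR quasi-likelihood test, adjusted p under 0.05 over all 1054 genes). Among all deposited genes 54.1% rose and 45.6% fell. The table holds only genes the authors had called on these libraries, and over all 9 livers the smallest fold between the group means in it was 2.00, so the number of calls is set by that choice and is given as a description. In 43 lncRNA genes every kept PN liver was above every bottle-fed liver, and in 46 every kept PN liver was below. The same was true of 43.5% and 41.6% of all deposited genes. With PN 5 counted, 38 lncRNA genes were above in every liver and 46 below.

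lncRNA genes were counted at a low level. A normalized count is the read count divided by the library's size factor, and its mean over the 8 livers had a median of 31.6 for the lncRNA genes, with a range of 2.95 to 614, and a median of 179 for the 930 protein-coding genes. Per length, the median FPKM (the count scaled by gene length and library total) was 0.412 for lncRNA genes and 2.53 for protein-coding genes. Among these genes, all chosen by the authors for a difference, the differences between groups were larger in lncRNA genes as a median. The median absolute difference between the groups in mean log2(normalized count + 1) was 2.38 for lncRNA genes, 1.45 for protein-coding genes and 1.52 over all deposited genes. In both kinds of gene the difference was larger at lower counts, and the part of the authors' choice of genes in this was not tested. At a mean of under 10 normalized counts the median difference was 2.68 for 24 lncRNA genes and 2.61 for 42 protein-coding genes, at 10 to 100 it was 2.35 for 55 and 1.75 for 288, and at 100 to 1000 it was 1.48 for 19 and 1.32 for 424.

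**Figure D1:**
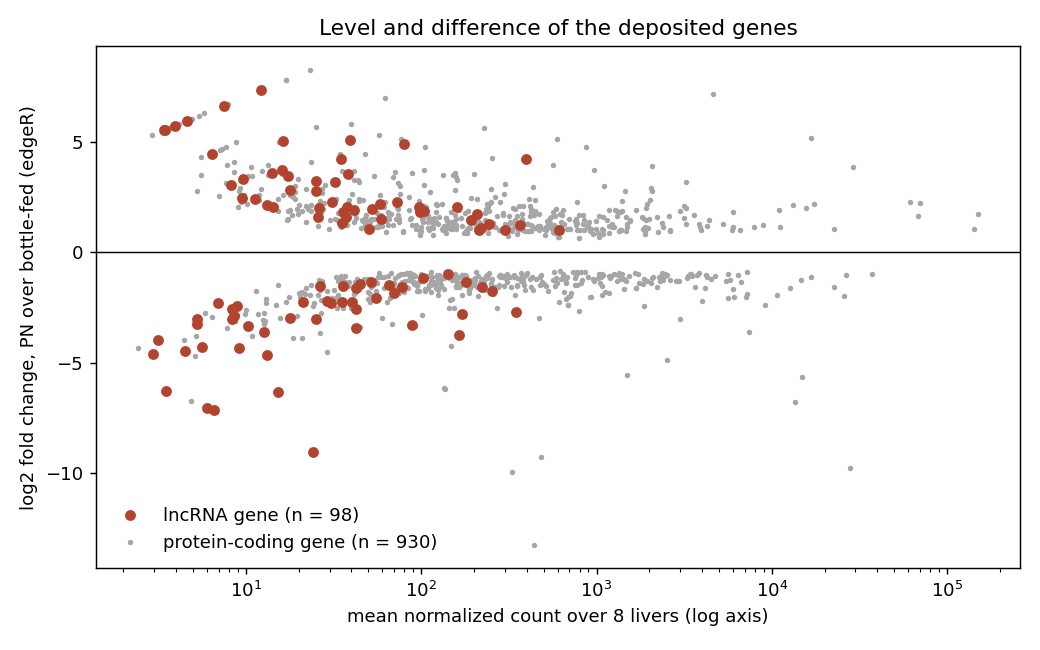
Fitted log2 fold change of PN over bottle-fed livers (edgeR) against the mean normalized count over 8 livers (log axis) for the 98 lncRNA genes and the 930 protein-coding genes. No lncRNA gene had a mean above 614, and no gene of the table lies near a log2 fold change of 0 because of how the genes were chosen.

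Of the 6 most abundant lncRNA genes by FPKM, 4 rose and 2 fell. ENSSSCG00000046461, on chromosome 12, averaged 18.9 FPKM in PN livers and 8.19 FPKM in bottle-fed livers. ENSSSCG00000041395, on chromosome 3, averaged 2.73 FPKM in PN livers and 17.8 FPKM in bottle-fed livers, and ENSSSCG00000046094, on chromosome 1, averaged 7.71 and 22.8 FPKM. ENSSSCG00000044841 averaged 12.9 and 6.52 FPKM, and ENSSSCG00000041449 averaged 10.4 and 5.19 FPKM, in PN and bottle-fed livers in that order. ENSSSCG00000046461 shares 856 bases with exons of RefSeq's TRPV2 on the same strand, and ENSSSCG00000041449 shares 1491 with exons of UGCG on the opposite strand.

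In normalized counts the groups did not overlap for any of these 5, and the other of the 6, ENSSSCG00000038429, is given after them. ENSSSCG00000041395 had 84.9, 103, 55.8, 59.3 and 264 in the kept PN livers and 90.9 in PN 5, against 1082, 763 and 365 in bottle-fed livers (log2 fold change -2.70 ± 0.49, SE, edgeR adjusted p = 0.000609). The closest values of the groups were those of PN 6 and bottle-fed 3. ENSSSCG00000046094 fell by 1.56 ± 0.34 on the log2 scale (edgeR adjusted p = 0.00156). ENSSSCG00000046461 rose by 1.21 ± 0.35 (adjusted p = 0.0064), ENSSSCG00000041449 by 1.01 ± 0.31 (adjusted p = 0.00851) and ENSSSCG00000044841 by 0.99 ± 0.30 (adjusted p = 0.00734), all from edgeR. In the deposited table the nearest protein-coding gene to ENSSSCG00000041395 was MYCN, a transcription factor of growing cells, 135801 bases away. MYCN had 7.80, 9.28, 5.77, 18.5 and 62.8 normalized counts in the kept PN livers, against 253, 244 and 136 in bottle-fed livers (log2 fold change -3.36 ± 0.63, edgeR adjusted p = 0.000751), and PN 6 was the highest PN liver in both genes.

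ENSSSCG00000038429 had the largest absolute log2 fold change of the 6 most abundant lncRNA genes by FPKM. It lies on chromosome 10, from 66433252 to 66436882 on the minus strand, where RefSeq has the lncRNA gene LOC100624137. It had 673, 378, 767, 588 and 680 normalized counts in the kept PN livers and 1734 in PN 5, against 15.5, 47.3 and 38.5 in bottle-fed livers. The lowest PN liver was well above the highest bottle-fed liver, and the log2 fold change was 4.20 ± 0.41 (edgeR adjusted p = 1.09e-05). Its mean level was 16.2 FPKM in PN livers and 0.887 FPKM in bottle-fed livers. A second lncRNA, ENSSSCG00000047291, lies 24936 bases further on along the same strand and rose too, with 12.7 to 39.0 in the kept PN livers, against 2.08 to 4.61 in bottle-fed livers (log2 fold change 2.83 ± 0.65, edgeR adjusted p = 0.00212). The nearest protein-coding gene to both was KLF6, a zinc-finger transcription factor, which starts 51508 bases from ENSSSCG00000038429 and runs the other way. KLF6 rose by 1.10 ± 0.24 on the log2 scale (edgeR adjusted p = 0.00163). PN 5 was the highest liver for all 3 genes.

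Other large increases came from rarer transcripts. ENSSSCG00000047941, on chromosome 15, had 128, 75.1, 79.8, 81.5 and 259 normalized counts in the kept PN livers, against 2.45, 5.76 and 4.17 in bottle-fed livers (log2 fold change 4.91 ± 0.63, edgeR adjusted p = 7.67e-05). No RefSeq gene overlaps it, and the nearest RefSeq coding gene was IRF2, an interferon regulatory factor. ENSSSCG00000043636, on chromosome 13, had 24.0 to 85.6 in the kept PN livers, against 4.61 to 5.21 in bottle-fed livers (3.53 ± 0.56, adjusted p = 0.00028, edgeR). PN 5 had 398 there, and with it the log2 fold change was 4.51. ENSSSCG00000041918, on chromosome 13, had 9.14 to 46.2 in the kept PN livers and at most 4.61 in bottle-fed livers (3.58 ± 0.97, edgeR adjusted p = 0.00471), and 5.26 without bottle-fed 2.

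A further pair of increases depended on which bottle-fed livers were counted. ENSSSCG00000050204, on chromosome 7, had 14.6, 77.6, 66.4, 57.4 and 52.5 in the kept PN livers, against 0, 9.22 and 0 in bottle-fed livers (log2 fold change 4.21 ± 0.99, edgeR adjusted p = 0.00231). The value was 8.83 without bottle-fed 2 and 3.55 without bottle-fed 1. It overlaps ENSSSCG00000033701 on the other strand, which had 1.92 to 12 in the kept PN livers and no count in any bottle-fed liver. ENSSSCG00000034578, on chromosome 5, had 6.83, 48.1, 27.9, 27.8 and 11.4 in the kept PN livers, 0 in PN 5, and 0, 5.76 and 0 in bottle-fed livers (3.73 ± 1.10, edgeR adjusted p = 0.00692). Its value was 7.70 without bottle-fed 2 and 3.08 without bottle-fed 1, and its groups overlapped once PN 5 was counted.

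**Figure D2:**
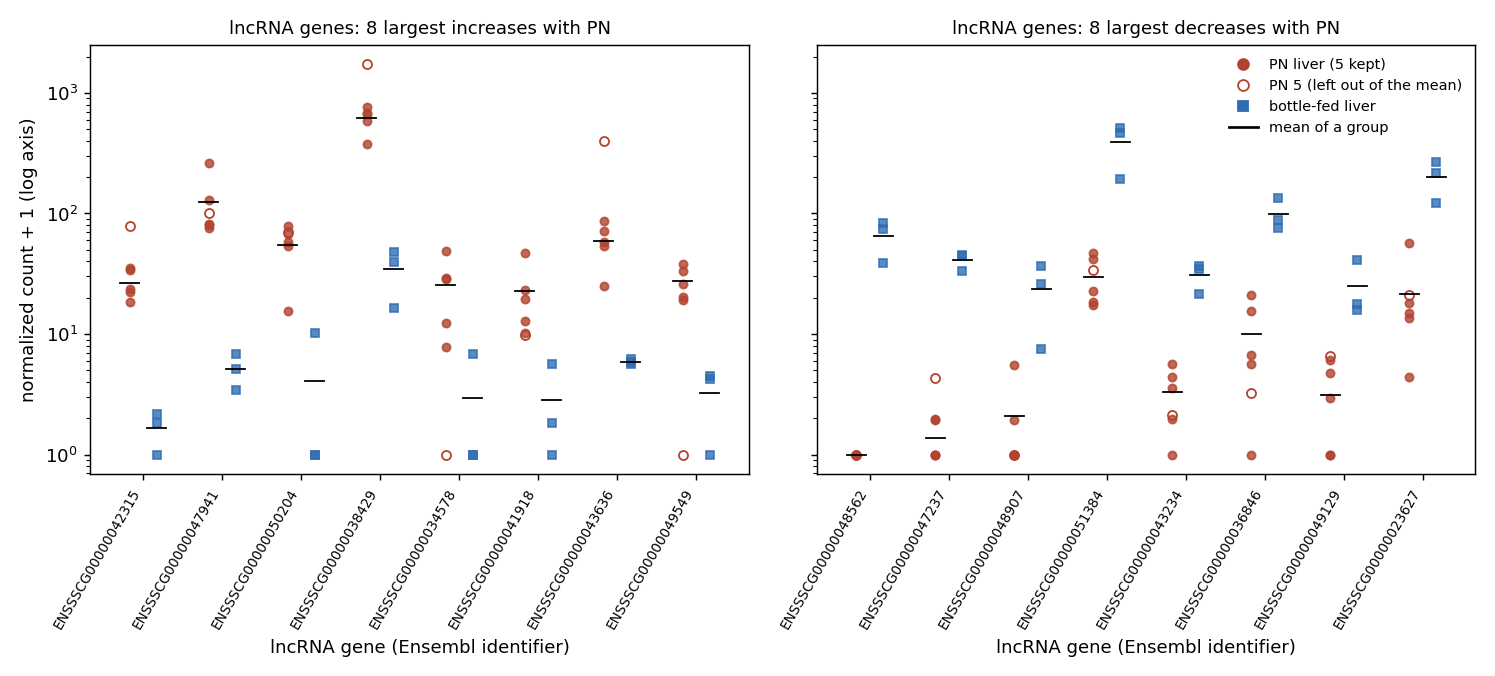
Normalized count + 1 (log axis) in each liver for the 8 largest increases (left) and the 8 largest decreases (right) among lncRNA genes with a mean of at least 20 in a group and no overlap between 5 kept PN livers and 3 bottle-fed livers. Filled circles are kept PN livers, open circles PN 5, squares bottle-fed livers and lines group means. ENSSSCG00000038429 lies highest among the increases and ENSSSCG00000051384 among the decreases.

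Among the decreases, ENSSSCG00000051384 on chromosome 13 was the most abundant of the 8 largest per length, at 0.675 FPKM in PN livers and 9.24 FPKM in bottle-fed livers. It had 41.0, 21.9, 16.4, 17.6 and 45.7 normalized counts in the kept PN livers and 33.3 in PN 5, against 192, 511 and 465 in bottle-fed livers. All PN livers were far below bottle-fed 1, the lowest of the bottle-fed livers (log2 fold change -3.77 ± 0.43, edgeR adjusted p = 4.02e-05). ENSSSCG00000047237, on chromosome 15, was close to absent with PN. It had at most 0.962 normalized counts in the kept PN livers and 3.33 in PN 5, against 44.2, 43.8 and 32.3 in bottle-fed livers (-6.32 ± 0.78, edgeR adjusted p = 6.7e-05), and -5.40 with PN 5 counted. ENSSSCG00000048907, on chromosome 3, had a count in only 2 of the 6 PN livers, 0.927 in PN 4 and 4.57 in PN 6, against 6.54, 35.7 and 25 in bottle-fed livers (-4.32 ± 1.02, edgeR adjusted p = 0.00235, and -6.0 without PN 6). ENSSSCG00000049129, on chromosome 17, had 0 to 5.06 in the kept PN livers, against 14.7, 40.3 and 16.7 in bottle-fed livers (-3.34 ± 0.86, edgeR adjusted p = 0.00349, and -2.75 without bottle-fed 2).

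A group of decreases lay together on chromosome 15 around LYPD6 and LYPD6B, which encode small proteins of the Ly6 family. ENSSSCG00000023627 carries the symbol LYPD6 in the reference name table although its deposited biotype is lncRNA, and it shares 3752 bases with RefSeq exons of that coding gene. It had 55.6, 3.38, 12.5, 13.9 and 17.1 normalized counts in the kept PN livers, against 121, 266 and 218 in bottle-fed livers (log2 fold change -3.30 ± 0.61, edgeR adjusted p = 0.000689, and -4.11 without PN 1). PN 1 was the highest PN liver and still lay below every bottle-fed liver. ENSSSCG00000044919, which overlaps it on the other strand, had 0 to 3.90 in the kept PN livers, against 3.27, 53.0 and 42.7 in bottle-fed livers (-4.66 ± 1.07, edgeR adjusted p = 0.00208), and here PN 1 was above bottle-fed 1. ENSSSCG00000047934, 5512 bases from the last, had no count in any of the 6 PN livers, against 3.27, 35.7 and 13.5 in bottle-fed livers. LYPD6B, the nearest protein-coding gene of the table, had 0 to 7.70 in the kept PN livers, against 41.7, 33.4 and 75 in bottle-fed livers (-3.89 ± 0.73, edgeR adjusted p = 0.000753).

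A set of 10 lncRNA genes had no count in one group, where 3 counts over the group is the floor used for a bound that covers counting error only. No count was seen in any PN liver for 4 genes, PN 5 included, and none in any bottle-fed liver for 6. ENSSSCG00000048562 was at least 112-fold lower in PN livers, ENSSSCG00000047934 at least 30.4-fold lower, and ENSSSCG00000048848, on an unplaced scaffold, at least 27.6-fold lower, with 11.4, 19.6 and 16.7 in bottle-fed livers. All PN livers had counts for ENSSSCG00000044161, which was at least 19.9-fold higher with PN at 49.8, 25.3, 2.89, 17.6 and 2.28 in the kept livers, and for ENSSSCG00000050520, at least 12.1-fold higher at 8.78, 14.3, 21.2, 7.41 and 8.0. Both lie on chromosome 13, starting at 181996195 and 181407522, while ENSSSCG00000050085, 36003 bases from ENSSSCG00000050520 on the same strand, fell, with 0 to 4.81 in the kept PN livers, against 24.5, 19.6 and 8.33 in bottle-fed livers (log2 fold change -2.55 ± 0.80, edgeR adjusted p = 0.00947).

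Neighbouring lncRNA genes of the table mostly moved the same way. Of 7 pairs that lay within 100 kb of each other, 6 had the same direction, and ENSSSCG00000050520 with ENSSSCG00000050085 was the exception. In that pair, RefSeq has the whole span of ENSSSCG00000050085 as exon of a coding gene, LOC106508546, on the same strand. On chromosome 11 ENSSSCG00000036846 had 14.6, 0, 20.2, 4.63 and 5.71 normalized counts in the kept PN livers, against 74.4, 134 and 87.5 in bottle-fed livers (-3.44 ± 0.70, edgeR adjusted p = 0.00122), and ENSSSCG00000044333, within it on the other strand, had 0 to 5.06, against 10.6, 30.0 and 15.6. On chromosome 4 ENSSSCG00000044028 and ENSSSCG00000046642, which lie on one strand 18745 bases apart, fell by 2.32 ± 0.56 and 2.25 ± 0.69 on the log2 scale (edgeR adjusted p = 0.00253 and 0.00803). Overlapping and adjacent genes may share reads.

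Next, each lncRNA gene was set beside the nearest protein-coding gene of the same table. Of the 97 with such a gene on the same chromosome or scaffold, the gap had a median of 293378 bases. It was never 0, so none overlapped a deposited protein-coding gene as placed there. These are often not the nearest genes in the genome. Over the 94 compared with RefSeq, the median gap to its nearest coding gene was 9166.5 bases, and 48 overlapped one or lay within 10 kb. For 12 the nearest deposited gene carried that gene's symbol, though some deposited genes have no symbol. All 15 lncRNA genes within 10 kb of a deposited protein-coding gene had its direction. Within 100 kb it was 28 of 35, or 80.0%, and within 1 Mb it was 47 of 70, or 67.1%. For the protein-coding genes and their own nearest protein-coding neighbour the shares were 78.2% of 124 within 10 kb, 66.7% of 243 within 100 kb and 59.9% of 663 within 1 Mb. The table holds only called genes, so both shares leave out pairs in which one gene did not change.

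Several of these close pairs were one place in RefSeq. Genes were matched by symbol. Of the 15 lncRNA genes, 3 shared bases with RefSeq exons of the neighbour itself on the same strand and 4 with its exons on the opposite strand. Another 3 shared bases with exons of a coding gene not matched to the neighbour, and 4 shared none, while 1 on an unplaced scaffold was not compared. The neighbour of ENSSSCG00000045477, among the unmatched, has no deposited symbol, so no match was possible there. The 4 that shared none all had the direction of the neighbour, as did 16 of the 20 compared genes within 100 kb that shared no bases with a coding exon. Divergent pairs, whose starts face away from each other, were 6 of the 15, and all 10 divergent pairs within 100 kb had the same direction. So did 6 of 8 convergent pairs within 100 kb, whose ends face each other. On the same strand it was 7 of 9 lncRNA genes downstream of the neighbour and 5 of 8 upstream. In 11 of the 15 the lncRNA gene had the larger absolute log2 fold change.

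**Figure D3:**
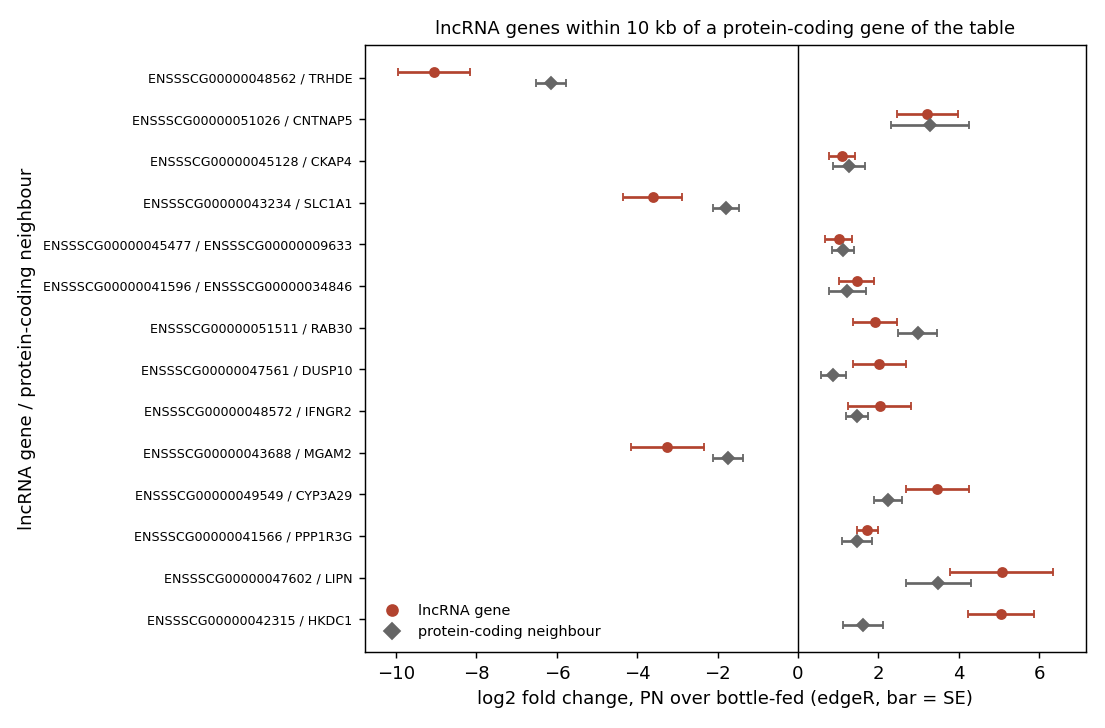
Fitted log2 fold change of PN over bottle-fed livers (edgeR, bars are SE) for 14 of the 15 lncRNA genes within 10 kb of a protein-coding gene (circles) and for that neighbour (diamonds), ordered by the gap from 210 bases at the top to 5098 at the bottom. In 11 of the pairs shown both genes were higher with PN and in 3 both were lower.

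The pair with the largest decrease was ENSSSCG00000048562 and TRHDE, the ectoenzyme that degrades thyrotropin-releasing hormone, on chromosome 5. Their starts are 210 bases apart and face away from each other. ENSSSCG00000048562 had no count in any PN liver, against 72.8, 83.0 and 37.5 normalized counts in bottle-fed livers (edgeR adjusted p = 7.67e-05). TRHDE had 8.78, 4.22, 2.89, 3.71 and 4.57 in the kept PN livers and 12.2 in PN 5, against 303, 393 and 353 in bottle-fed livers (log2 fold change -6.15 ± 0.37, edgeR adjusted p = 7.54e-08). RefSeq extends an exon of TRHDE through 7271 bases of the lncRNA gene and also has a lncRNA, LOC110260707, on the lncRNA strand, so the 2 records differ on what is transcribed there.

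ENSSSCG00000043234 and SLC1A1, a transporter of glutamate, aspartate and cysteine, lie 373 bases apart on chromosome 1 and are also divergent. ENSSSCG00000043234 had 0, 2.53, 0.962, 4.63 and 3.43 normalized counts in the kept PN livers and 1.11 in PN 5, against 20.4, 33.4 and 35.4 in bottle-fed livers (-3.62 ± 0.73, edgeR adjusted p = 0.00116). SLC1A1 had 41.9, 97.9, 57.7, 48.2 and 49.1 in the kept PN livers, against 233, 214 and 167 in bottle-fed livers (-1.79 ± 0.33, edgeR adjusted p = 0.000697). Neither gene overlapped between the groups. RefSeq has 149 bases of exons of another coding gene, GLIS3, within the lncRNA gene on the same strand. ENSSSCG00000043688 and MGAM2, a relative of the starch-digesting enzyme maltase-glucoamylase, were the third pair to fall. On the opposite strand, 482 bases of RefSeq exons of MGAM2 lie within the lncRNA gene. The lncRNA had 0 to 2.78 in the kept PN livers, against 17.2, 12.7 and 6.25 in bottle-fed livers (-3.26 ± 0.91, edgeR adjusted p = 0.00532), and MGAM2 fell by 1.75 ± 0.38 on the log2 scale (adjusted p = 0.00157).

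Pairs that rose included ENSSSCG00000051511 and RAB30, a small GTPase of the Golgi, on chromosome 9. The lncRNA had 83.9, 22.8, 66.4, 83.4 and 29.7 normalized counts in the kept PN livers, against 17.2, 10.4 and 17.7 in bottle-fed livers (1.91 ± 0.55, edgeR adjusted p = 0.00611). RAB30 had 891, 332, 831, 939 and 242, against 58.9, 95.7 and 92.7 in bottle-fed livers (2.98 ± 0.48, edgeR adjusted p = 0.000338). PN 2 and PN 6 were the 2 lowest PN livers for both genes. RefSeq places 3553 bases of RAB30 exons on the opposite strand within the lncRNA gene. ENSSSCG00000042315 and HKDC1, a hexokinase-like enzyme, on chromosome 14 had the same arrangement over 3006 bases. The lncRNA had 17.6, 22.8, 32.7, 21.3 and 34.3 in the kept PN livers and 77.6 in PN 5, against 0.818, 1.15 and 0 in bottle-fed livers (5.06 ± 0.83, edgeR adjusted p = 0.000338), and HKDC1 rose by 1.62 ± 0.49 (adjusted p = 0.008). PN 5 was the highest liver for both.

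ENSSSCG00000047602, beside LIPN, a member of the acid lipase family, on chromosome 14, was the lncRNA gene of the close set that varied most among the kept PN livers. The lncRNA had 131, 0.844, 51.0, 87.1 and 36.5 normalized counts in the kept PN livers and 1.11 in PN 5, against 0, 4.61 and 1.04 in bottle-fed livers. LIPN had 434, 30.4, 225, 309 and 160 in the kept PN livers and 41.0 in PN 5, against 4.91, 40.3 and 17.7 in bottle-fed livers. The 6 PN livers fell in the same order for both genes, which no other close pair showed, and in both genes PN 2 lay within the bottle-fed values. RefSeq has 393 bases of exons of a coding gene under another symbol, LOC100156277, within the lncRNA gene on the same strand. The log2 fold changes were 5.07 ± 1.27 for the lncRNA (edgeR adjusted p = 0.00324) and 3.49 ± 0.80 for LIPN (adjusted p = 0.00212). The lncRNA's value was 6.71 without bottle-fed 2 and 4.41 without bottle-fed 1, and its two-sided exact permutation p was 0.0893 over 8 livers.

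**Figure D4:**
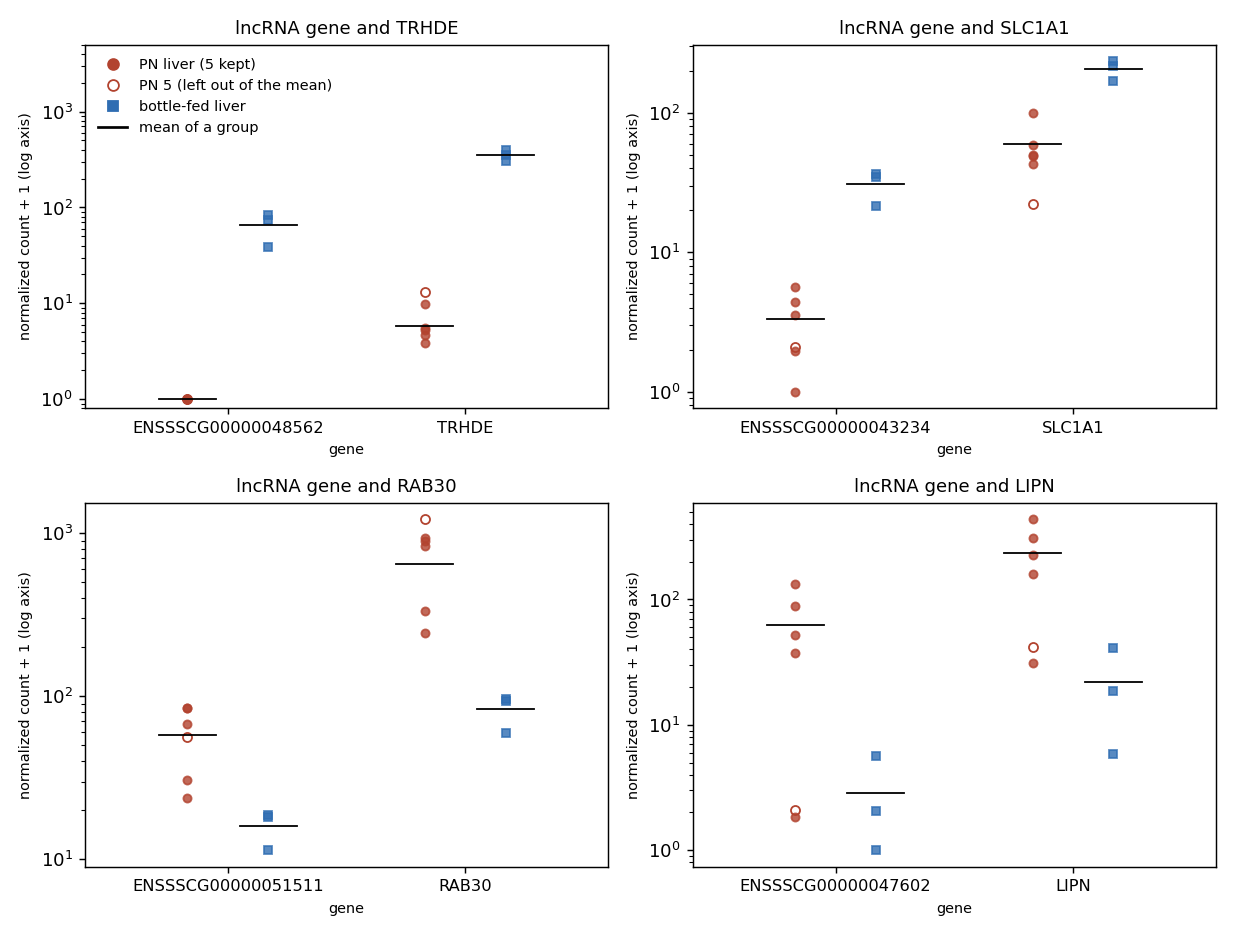
Normalized count + 1 (log axis) in each liver for 4 lncRNA genes and their protein-coding neighbours TRHDE, SLC1A1, RAB30 and LIPN. PN livers (circles, PN 5 open) stand left of bottle-fed livers (squares) for each gene, and lines are means over 5 kept PN livers and 3 bottle-fed livers. The groups overlap only in the LIPN pair.

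Among the remaining close pairs the neighbours had immune, signalling and metabolic roles. ENSSSCG00000048572, 1533 bases from IFNGR2, a chain of the interferon gamma receptor, had 14.8 to 28.3 in the kept PN livers, against 7.36, 6.92 and 0 in bottle-fed livers (2.03 ± 0.78, edgeR adjusted p = 0.0231), and IFNGR2 rose by 1.47 ± 0.27 (adjusted p = 0.000634). ENSSSCG00000047561, beside DUSP10, a phosphatase that turns off stress kinases, had 18.3 to 54.6, against 2.45, 8.07 and 16.7 (2.02 ± 0.66, edgeR adjusted p = 0.0112, and 2.82 without bottle-fed 3), and DUSP10 rose by 0.88 ± 0.32 (adjusted p = 0.017). ENSSSCG00000049549, beside the drug-metabolizing enzyme CYP3A29, had 37.1, 32.1, 19.2, 25 and 18.3 in the kept PN livers and 0 in PN 5, against 3.27, 3.46 and 0 in bottle-fed livers (3.47 ± 0.77, edgeR adjusted p = 0.00185). The deposited CYP3A29 lies 2841 bases from it, whereas the nearest coding gene in RefSeq was CYP3A22, 4754 bases away. CYP3A29 had 63250 to 122268 normalized counts in the kept PN livers and 37618 in PN 5, against 16595 to 25376 in bottle-fed livers (2.25 ± 0.35, edgeR adjusted p = 0.000236), so the lncRNA's count was 0.0248% of its neighbour's.

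ENSSSCG00000041566 was the most even of the close set among livers. It had 259, 323, 291, 256 and 276 normalized counts in the kept PN livers and 211 in PN 5, against 81.8, 86.5 and 86.4 in bottle-fed livers (1.73 ± 0.26, edgeR adjusted p = 0.000201). RefSeq has its whole span as exon of PPP1R3G, the glycogen-targeting subunit of a protein phosphatase, which ends 2980 bases before it on the same strand in the deposited table and rose by 1.46 ± 0.38 (adjusted p = 0.00374). The lncRNA record held more counts than the coding record, 427% of it on average. ENSSSCG00000051026, wholly within RefSeq exons of CNTNAP5, an adhesion protein of neurons, rose by 3.22 ± 0.75 (edgeR adjusted p = 0.00219), and CNTNAP5 by 3.29 ± 0.98 (adjusted p = 0.00719). The PN livers did not keep their order there, since PN 1 was lowest for the lncRNA at 9.75 and highest for CNTNAP5 at 156.

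Another 3 close pairs rose by smaller amounts. ENSSSCG00000045128, after CKAP4, a membrane protein of the endoplasmic reticulum, had 190 to 374 normalized counts in the kept PN livers, against 81.2 to 177 in bottle-fed livers (1.10 ± 0.33, edgeR adjusted p = 0.00729), and CKAP4 rose by 1.28 ± 0.40 (adjusted p = 0.00935). This lncRNA gene shares 866 bases with RefSeq exons of CKAP4 on the same strand. ENSSSCG00000045477 had 158 to 365, against 97.9 to 190, so its groups overlapped (1.01 ± 0.34, edgeR adjusted p = 0.0126). It is the close gene whose call was lost when a single liver was left out, at 0.87 without bottle-fed 1 and 0.84 without bottle-fed 3. ENSSSCG00000041596, on an unplaced scaffold, had 138 to 413 in the kept PN livers and 569 in PN 5, against 43.3 to 118 in bottle-fed livers (1.46 ± 0.43, edgeR adjusted p = 0.00684).

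Between 10 and 100 kb, 7 lncRNA genes went against their deposited neighbour, of which 2 are described, chosen after their values were seen. RefSeq has a nearer coding gene for both, ERRFI1 at 4598 bases from ENSSSCG00000045401 and BTG2 at about 12900 bases from ENSSSCG00000051782. ENSSSCG00000045401 had 13.5 to 42.9 normalized counts in the kept PN livers, against 63.0, 79.5 and 80.2 in bottle-fed livers, and fell by 1.45 ± 0.44 (edgeR adjusted p = 0.00798), while TNFRSF9, a receptor of activated T cells 49137 bases away, rose by 3.94 ± 0.50 (adjusted p = 7.67e-05). ENSSSCG00000051782 had 16.6 to 80.0, against 4.17 to 16.1, and rose by 2.26 ± 0.67 (edgeR adjusted p = 0.00697), while FMO1, a flavin-containing oxygenase 99356 bases away, fell by 1.93 ± 0.31 (adjusted p = 0.000284). ENSSSCG00000048848, which had no count in PN livers, lies 62316 bases from MCM5, a subunit of the replication helicase, which fell by 1.54 ± 0.23 (adjusted p = 0.000185).

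The spread among PN livers was wider for lncRNA genes than for protein-coding genes, as a median. The SD of log2(normalized count + 1) over the 5 kept PN livers had a median of 0.75 for lncRNA genes and 0.49 for protein-coding genes, and over the 3 bottle-fed livers 0.52 and 0.33. It followed the level of the gene, taken as the mean over the 8 livers of both groups, which is not the level in PN livers alone. Under 10 normalized counts the median in PN livers was 0.91 for lncRNA and 0.97 for protein-coding genes, at 10 to 100 it was 0.76 and 0.60, and at 100 to 1000 it was 0.51 and 0.44. The 4 most variable lncRNA genes in PN livers, with a mean of at least 20 over the 8 livers, were ENSSSCG00000047602 with an SD of 2.44, ENSSSCG00000036846 with 1.72, ENSSSCG00000050523 with 1.61 and ENSSSCG00000023627 with 1.31. All but the first fell, so their mean came mostly from the bottle-fed livers. Their SD rests on low counts in PN livers. ENSSSCG00000050523, on chromosome 14, had 1.95, 0, 9.62, 12 and 10.3 in the kept PN livers, against 40.9, 49.6 and 77.1 in bottle-fed livers (-3.04 ± 0.74, edgeR adjusted p = 0.00269).

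**Figure D5:**
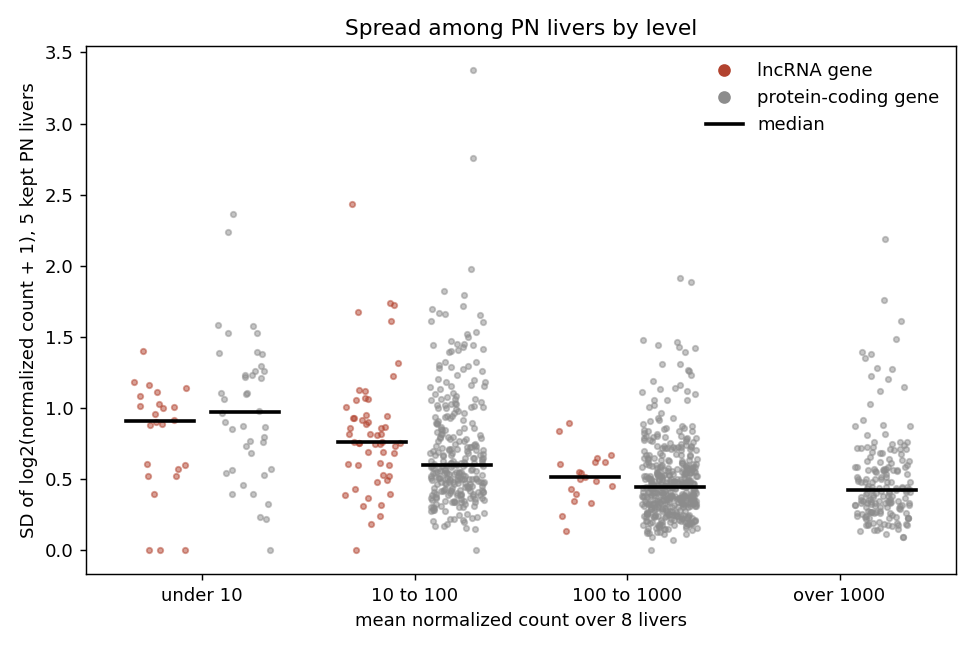
SD of log2(normalized count + 1) over the 5 kept PN livers for each lncRNA gene and each protein-coding gene, in 4 bins of mean normalized count. Lines are medians, at 0.91, 0.76 and 0.51 for lncRNA genes in the first 3 bins, and no lncRNA gene reached the last bin.

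No single PN liver stood at the extreme for most lncRNA genes. PN 5 was the highest PN liver for 11 of the 51 lncRNA genes that rose, or 21.6%, against 39.1% of the 499 protein-coding genes that rose. PN 6 was highest for 14 of the 51. Among the 47 that fell, PN 1 was the highest PN liver for 15. In the bottle-fed group, bottle-fed 2 was the highest liver for 28 of the 51 lncRNA genes that rose, or 54.9%, against 28.3% of the protein-coding genes, and bottle-fed 1 was the lowest for 25 of the 47 that fell, or 53.2%, against 42.5%. Bottle-fed 2 had the smallest library of the 9 and bottle-fed 1 the largest, and their part in these counts was not tested.

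The other 61 lncRNA genes fell outside the naming rule given below, though some are described above beside a lncRNA or coding neighbour. Of the 61, 28 rose, with log2 fold changes of 1.07 to 5.96, and 33 fell, with log2 fold changes of -6.29 to -0.98. The mean normalized count in the group where each was higher ran from 5.46 to 454, and none averaged more than 4.73 FPKM. By a two-sided exact permutation test of each gene on log2(normalized count + 1), 91 of the 98 had an unadjusted p under 0.05, as did 83.7% of all 1054 deposited genes, which were chosen for a difference between these groups, where the smallest p that 5 against 3 livers can give is 0.0179. Each library came from 1 piglet, so the p-values set a group difference against the spread between piglets of a group. They do not take in the spread between litters, as the groups came from different sows.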

How the data were processed

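Liver RNA-Seq libraries of 6 PN and 3 bottle-fed piglets were used. Per the paper and the submitters' processing notes, the authors aligned cleaned reads with HISAT2 2.0.5 (build Sscrofa11.1) and assigned them to genes with featureCounts 2.0.3, and the deposited read counts per gene are raw. The normalized signal values are the authors' counts divided by 1 size factor per library, and the deposited FPKM values scale counts by gene length and library total. Fold changes and p-values of the authors, also in the files, were not used.

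Size factors and library totals were recovered from the deposited columns. Raw counts of all 1054 genes were fitted with edgeR 4.0.16 (quasi-likelihood, no filter on low counts, p-values adjusted by Benjamini-Hochberg over 1054), without PN 5, which the study left out. Standard errors are the absolute log2 fold change over the root of F. DESeq2 1.42.0 and other settings served as alternatives. The fitting script was tested on simulated data with known changes.

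Members and lists were chosen with earlier results of these data known. Genes were named by rule: the 8 largest changes each way with a mean of at least 20 and no overlap, the 6 highest by mean FPKM, those within 10 kb of a protein-coding gene, those with no count in one group and a mean of at least 10 in the other, the 4 most variable, and those with a symbol, 37 in all. Some lncRNA genes outside the rule are described too, for lying near another lncRNA gene or for going against a coding neighbour. Neighbours were found by coordinates among the deposited protein-coding genes, with gaps as bases between genes. Sequences and overlaps come from RefSeq's Sscrofa11.1, in which 731 of 731 coding genes matched by symbol overlapped the deposited position. No 2 libraries were alike within sampling noise. Values of some named genes and neighbours, and some start sequences, are not reported here.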

Additional observations from a re-analysis of the deposited data

Results flagged for a closer look

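Over the 6 PN livers, 2 values stood far from the rest on the log2(normalized count + 1) scale by Dixon's test, among the 34 named lncRNA genes tested. The test flags about 1 group in 20 by chance, so 2 of 34 is close to that number. ENSSSCG00000049549, beside CYP3A29, had 0 normalized counts in PN 5, against 18.3 to 37.1 in the other 5 PN livers. ENSSSCG00000050204, on chromosome 7, had 14.6 in PN 1, against 52.5 to 77.6 in the other 5. PN 5 is already left out of the group values.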

How the results depend on the processing

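The authors chose these genes on the same libraries, so how little the calls move is largely set by that choice. With all 9 livers, library totals, TMM or DESeq2 the calls stayed at 51 genes higher and 47 lower. They were 45 and 33 after filterByExpr, which tests fewer genes, 39 and 44 at an adjusted p under 0.01, 45 and 46 by the exact permutation test, and 44 and 42 with the replicate block. Leaving out 1 liver gave 45 to 51 higher and 44 to 47 lower. Replicate numbers are shared between the groups but the litters are not, and same-numbered livers did not deviate together (correlations of -0.03, -0.05 and -0.02), so the livers are not paired. Under the block ENSSSCG00000044841 lost its call, at 0.71. The count of lncRNA genes with the direction of a neighbour within 100 kb, 28, was 15 within 10 kb and 47 within 1 Mb, which hold fewer and more pairs, and 16 among genes shown to share no base with a RefSeq coding exon, a choice made after seeing the data that drops genes. The other counts moved by less than 1.5 times: genes with no overlap between groups numbered 32 to 46 higher and 36 to 47 lower over all settings, and 36 genes rose and 36 fell among those shown to share no coding exon. With a pseudocount of 5 in place of 1 the median absolute difference was 1.66, and with 0.5 it was 2.68, against 2.38. Each of the 37 named genes was also fitted under the alternative settings, which gave 514 values. None of the 514 reversed direction, and 3 of these lost a call, for ENSSSCG00000045477 in both other cases. Low counts limit the rarest genes: 8 had a mean under 10 normalized counts in both groups. A set of 10 genes rest on a group with no counts, and the table holds only called genes.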
